A study of Oryctolagus cuniculus with 17 samples.

Results

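The interleukin 1 family genes described here were 10 genes of the preterm rabbit lung: the ligands IL1A, IL1B, IL18 and IL33, the receptor antagonist IL1RN, the receptors IL1R1, IL1R2, IL1RAP and IL1RL1, and the inflammasome sensor NLRP3. They were taken from the table of raw counts by the human gene name given for each rabbit gene, with the entry of the highest total where a name occurred more than once. All 10 were found, each as 1 entry at a locus of its own, among 13827 gene entries, and all 10 passed the filter on low counts. Lungs came from New Zealand White rabbits taken by C-section on day 28 of pregnancy, ahead of term, so every group, controls included, was preterm. Pups were fed a milk replacer and kept either in normoxia (NT, 21% O2) or in hyperoxia (HT, 95% O2) until day 3, 5 or 7 after birth. RNA of whole right lung homogenate was sequenced in 3 samples each of HT3, HT7, NT3, NT5 and NT7 and in 2 samples of HT5. The labels do not say whether samples came from separate litters, and p-values measure the spread between these samples.

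Interleukin 1 signals through a receptor made of IL1R1, which binds the ligand, and IL1RAP, the accessory protein that brings the second signalling domain. IL1A and IL1B are agonists of this receptor, IL1RN occupies it without starting a signal, and IL1R2 binds ligand but lacks the signalling domain, so it acts as a decoy. IL33 uses IL1RL1 (ST2) with the same accessory protein, whereas IL18 has its own receptor pair. IL1B and IL18 are made as inactive precursors that caspase 1 cuts once an inflammasome such as that of NLRP3 has assembled, while IL1A and IL33 can be released by damaged cells. Messenger RNA measured here tells nothing of this cutting or of release.

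Samples held between 13123731 and 18111086 counts with each locus counted once. Levels are given as CPM (counts scaled to a common library total), which are not divided by gene length and are therefore compared between samples and never between genes. A gene was said to rise or fall at an adjusted p under 0.05, and was called a DEG at an adjusted p under 0.01 with a log2FC (the log2 of the change between groups) above 2 or below -2. Some libraries stood apart. Summed CPM of 6 skeletal muscle markers were 355 in HT3 replicate 2, 318 in HT5 replicate 1 and 45.5 in HT3 replicate 3, and at most 10.9 in the other samples. The summed CPM of 14 macrophage and monocyte markers were 2265 in NT5 replicate 1 and 1312 and 1199 in the other NT5 samples, and results that rest on these libraries are given with and without them.

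On day 3, 2 of the 10 genes rose in hyperoxia, IL1R2 and IL1RAP, when 1.03% of all 13142 genes tested changed in either direction and 0.517% rose. The replicate number was taken as a pairing on day 3, though the labels do not say what it marks. With it as a block 0 of the 10 passed (adjusted p = 0.0717 for both genes, and 6 at an unadjusted p under 0.05). On day 5, 4 rose, IL1B, IL1R2, IL1RAP and IL33, against 31.3% of all genes changed and 15.9% rising. On day 7 the same 4 genes rose, against 47.4% of all genes changed and 23.7% rising. Over the alternative fits 3 to 7 members changed on day 7. None of the 10 fell on any of the 3 days. By the DEG thresholds there was no member on day 3, where 0.0533% of all genes passed and DESeq2 called IL1R2. On day 5 the single DEG was IL1B, with 1.58% of all genes passing, and on day 7 it was IL1R2, with 4.59% passing. The number of DEGs on day 5 was 0 with only the groups compared in the fit and 4 without NT5 replicate 1. The median log2FC of the 10 genes was 0.76 on day 3, 0.89 on day 5 and 1.24 on day 7, while that of all genes lay between -0.02 and 0.00. Every hyperoxia sample lay above every normoxia sample of the same day for 6 of the 10 genes on day 3, 4 on day 5 and 7 on day 7, and over all genes this held for 12.8%, 26.5% and 27.3%. In whole lung RNA, more cells of a type cannot be told apart from more RNA per cell.

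**Figure D1:**
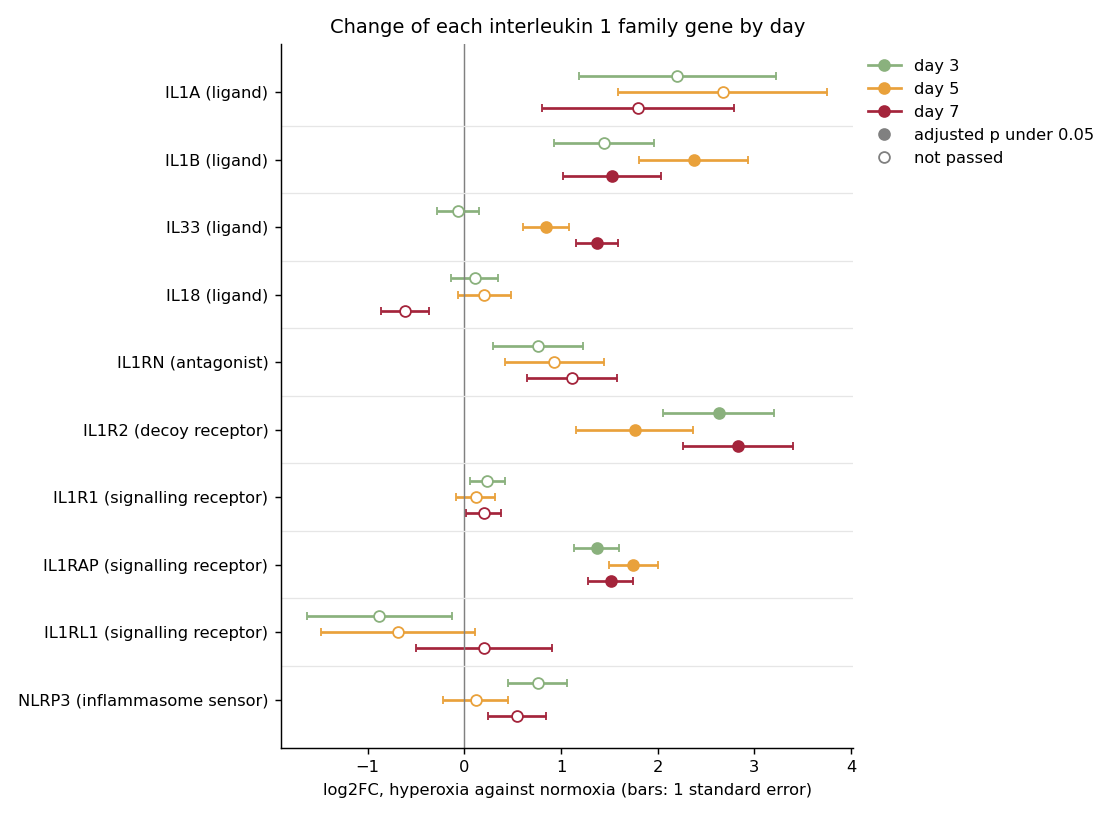
Log2FC of hyperoxia against normoxia (horizontal axis) for each of the 10 genes, ordered by role, on days 3 (green), 5 (orange) and 7 (dark red), with bars of 1 standard error, filled where the adjusted p was under 0.05. IL1R2 and IL1RAP are filled on all 3 days, IL1B and IL33 on days 5 and 7, and IL1R1 stays within 0.24 of 0.

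IL1B, the interleukin 1 made mainly by myeloid cells, was measured at 15.4, 16.0 and 63.2 CPM in the 3 HT3 samples and at 10.4, 10.7 and 13.6 CPM in the NT3 samples. On day 5 it stood at 90.3 and 37.9 CPM in HT5 and at 17.6, 8.85 and 10.7 CPM in NT5. On day 7 it reached 104, 46.1 and 75.1 CPM in HT7 and 33.4, 16.9 and 27.8 CPM in NT7. The groups did not overlap on any day, although on day 3 only replicate 3 stood far above normoxia. The change was 1.45 (SE 0.52) on day 3, which did not pass (adjusted p = 0.195) and was 0.44 without HT3 replicate 3 (adjusted p = 0.694). IL1B rose by a log2FC of 2.37 (SE 0.56, adjusted p = 0.00607) on day 5, or 5.17-fold, and by 1.53 (SE 0.51, adjusted p = 0.0225) on day 7, or 2.88-fold. The call on day 5 was lost without HT5 replicate 1 (log2FC 1.61, adjusted p = 0.0677), one of the libraries with muscle transcripts. The call on day 7 was lost without HT7 replicate 1 (1.22, adjusted p = 0.0928), NT7 replicate 2 (1.30, adjusted p = 0.0902) or NT7 replicate 3 (1.58, adjusted p = 0.0516).

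IL1A, the agonist that epithelial and other tissue cells store as an active precursor, varied widely within groups, with a highest sample 11.6 times the lowest in NT5 and 7.40 times in HT3. HT3 samples had 6.21, 9.58 and 46.0 CPM against 1.74, 5.24 and 6.43 CPM in NT3. HT5 samples had 58.0 and 13.5 CPM against 14.4, 1.27 and 1.24 CPM in NT5, and HT7 samples 20.1, 45.5 and 23.6 CPM against 17.4, 2.09 and 6.17 CPM in NT7. Only on day 7 did the groups not overlap, and there by the narrow gap between the lowest HT7 and the highest NT7 sample. The log2FC was 2.20 (SE 1.02, adjusted p = 0.319) on day 3, 2.67 (SE 1.08, adjusted p = 0.0729) on day 5 and 1.80 (SE 0.99, adjusted p = 0.150) on day 7, and none passed. The day 3 difference was 0.82 without HT3 replicate 3 (adjusted p = 0.780), and the day 5 difference was 1.27 without HT5 replicate 1 (adjusted p = 0.476). Without NT5 replicate 1 the difference on day 5 was 4.82 and passed (adjusted p = 0.0098). The day 7 difference passed with the replicate block, though replicate numbers were not taken as a pairing on that day.

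IL33, an alarmin held in the nuclei of epithelial, endothelial and stromal cells, was level on day 3, with 148, 226 and 234 CPM in HT3 and 149, 207 and 280.5 CPM in NT3. On day 5 it measured 489.7 and 472 CPM in HT5 and 236, 283 and 285 CPM in NT5. On day 7 it measured 513, 377 and 520.4 CPM in HT7 and 154, 199 and 191 CPM in NT7. The groups overlapped on day 3 and were well apart on days 5 and 7. Its log2FC went from -0.06 (SE 0.21, adjusted p = 0.924) on day 3 to 0.84 (SE 0.24, adjusted p = 0.0148) on day 5 and 1.37 (SE 0.22, adjusted p = 0.000154) on day 7, the last being 2.59-fold. The rise on day 5 did not pass when either HT5 sample was left out (0.81, adjusted p = 0.0501 without replicate 1, and 0.85, adjusted p = 0.0871 without replicate 2). Summed CPM of 8 endothelial markers moved the other way, from 2337 to 2748 in NT7 to 928 to 1299 in HT7, and 6 of the 8 fell, when 47.4% of all genes changed.

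IL18, a cytokine with an epithelial and a macrophage source, was the only member with lower values in hyperoxia on day 7. HT3 samples had 406, 408 and 398 CPM and NT3 samples 394, 434 and 296 CPM. HT5 samples had 467 and 283 CPM and NT5 samples 339.7, 311 and 322 CPM. On day 7 the HT7 samples had 143, 321 and 194 CPM and the NT7 samples 386, 339.9 and 282 CPM, so 2 of the 3 HT7 samples lay below all NT7 samples. The log2FC was 0.11 (SE 0.24, adjusted p = 0.878) on day 3, 0.21 (SE 0.27, adjusted p = 0.589) on day 5 and -0.62 (SE 0.25, adjusted p = 0.0513) on day 7. The day 7 value was near the threshold, and it passed with the replicate block. It passed in DESeq2 (-0.62, adjusted p = 0.0292), in edgeR with DESeq2 size factors (adjusted p = 0.0468) or with 1 entry per locus (0.0491), without HT7 replicate 2 (-0.99, adjusted p = 0.00163) and without NT7 replicate 3 (-0.73, adjusted p = 0.0447). Summed CPM of 7 alveolar type 2 markers, whose cells make surfactant, had the same order as IL18 within HT7 and HT5, with 13537, 29591 and 16333 in HT7 replicates 1, 2 and 3 and 33180 and 12655 in HT5 replicates 1 and 2. The order was also shared in NT5 and NT7 but not in HT3 or NT3, with 24794, 28057 and 24894 in HT3 and 20388, 17460 and 18195 in NT3 replicates 1, 2 and 3. Of these 7 markers SFTPA1 rose by 1.17 on day 7, NAPSA fell by 1.49 and SLC34A2 fell by 1.51, and their part in the values of IL18 was not tested.

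**Figure D2:**
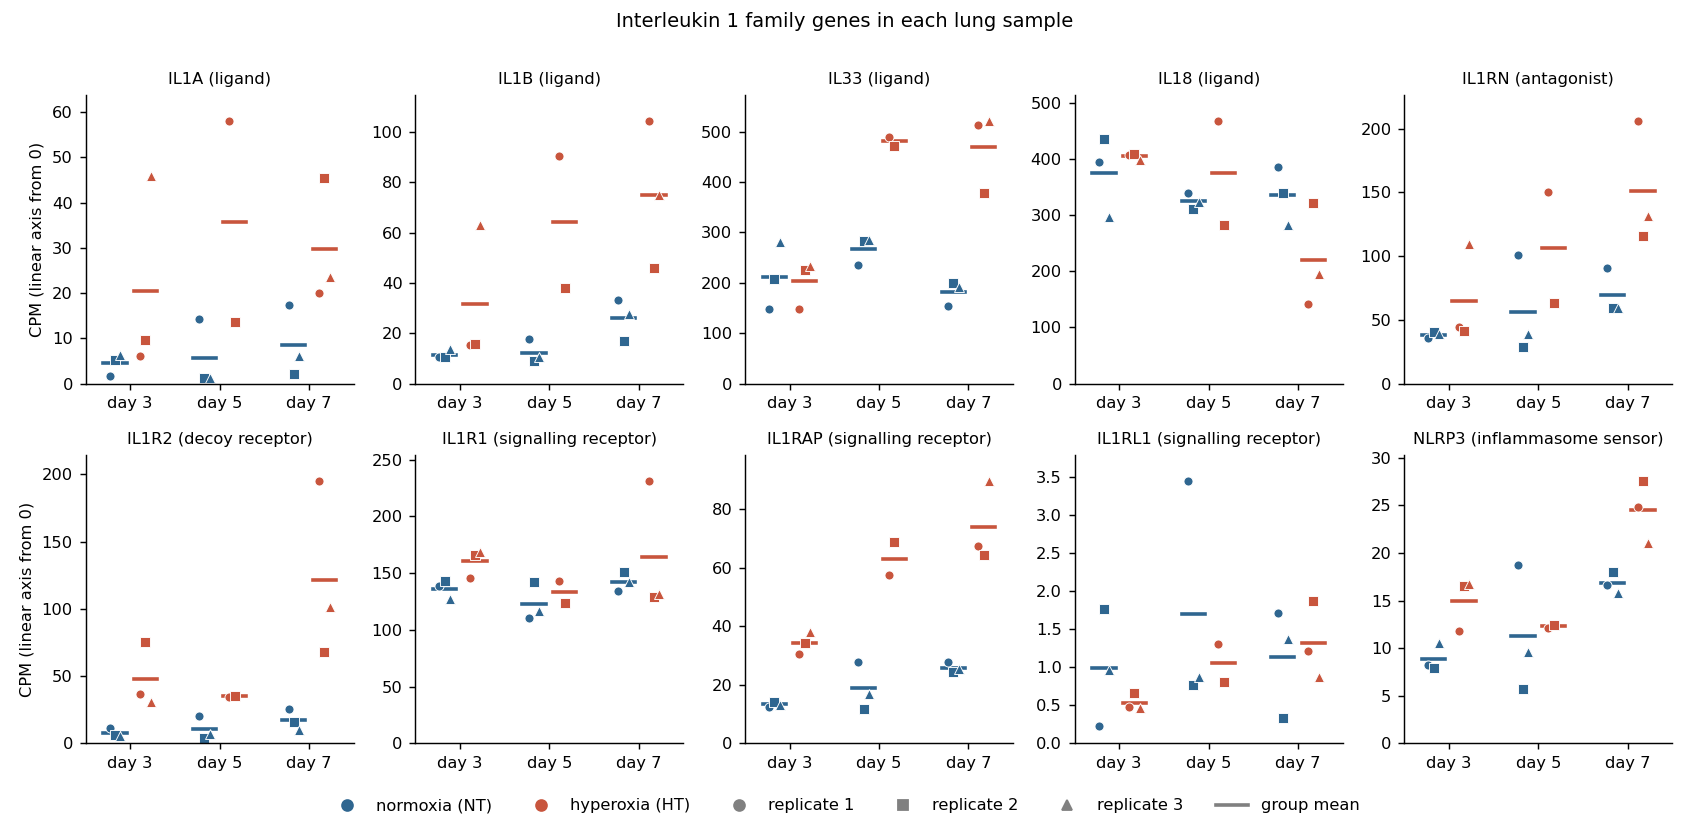
CPM (vertical axis, linear from 0) of each of the 10 genes by day, one panel a gene, with normoxia in blue and hyperoxia in red, a marker shape for each replicate number and a line for the group mean. HT3 replicate 3 carries the highest IL1A, IL1B and IL1RN of day 3, and HT7 replicate 1 the highest IL1B, IL1RN, IL1R1 and IL1R2 and the lowest IL18 of day 7.

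IL1RN, the antagonist that competes for IL1R1, lay at 44.4, 41.2 and 109 CPM in HT3 and at 35.5, 40.8 and 38.7 CPM in NT3. It lay at 150.0 and 63.5 CPM in HT5 and at 101, 28.5 and 38.7 CPM in NT5. On day 7 it lay at 206, 116 and 132 CPM in HT7 and at 90.5, 59.4 and 59.2 CPM in NT7. Hyperoxia samples were all above normoxia samples on days 3 and 7, on day 3 by less than 1 CPM, and overlapped on day 5, where NT5 replicate 1 was high. None of the 3 differences passed, with a log2FC of 0.76 (SE 0.47, adjusted p = 0.464) on day 3, 0.93 (SE 0.51, adjusted p = 0.173) on day 5 and 1.12 (SE 0.46, adjusted p = 0.0605) on day 7. Without HT3 replicate 3 the day 3 value was 0.16 (adjusted p = 0.924), and without HT5 replicate 1 the day 5 value was 0.18 (adjusted p = 0.845). Without NT5 replicate 1 the day 5 value was 1.67 and passed (adjusted p = 0.0181), and without HT7 replicate 2 the day 7 value was 1.28 and passed (adjusted p = 0.0489). Fitted to the NT7 and HT7 samples alone, the day 7 value also passed (1.12, adjusted p = 0.0103), as it did with the replicate block.

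IL1R2, the decoy receptor, showed 36.7, 75.5 and 30.6 CPM in HT3 where NT3 showed 11.1, 6.20 and 5.75 CPM. It showed 34.8 and 35.3 CPM in HT5 and 20.3, 3.95 and 6.77 CPM in NT5. In HT7 it showed 195, 67.5 and 102 CPM, and in NT7 25.2, 16.1 and 9.91 CPM. Each of the 8 hyperoxia samples was above each of the 9 normoxia samples, from all days. IL1R2 rose by a log2FC of 2.63 (SE 0.58, adjusted p = 0.0429) on day 3, 1.76 (SE 0.60, adjusted p = 0.0376) on day 5 and 2.83 (SE 0.57, adjusted p = 0.000926) on day 7, which are 6.19-fold, 3.39-fold and 7.13-fold. On day 3 replicate numbers were taken as a pairing, and with the number as a block the value was 2.57 and did not pass (adjusted p = 0.0717). With 1 sample left out at a time the log2FC on day 3 ran from 2.13 to 2.99. The day 3 call also needed all samples but HT3 replicate 3, with adjusted p values of 0.0891 and 0.156 without HT3 replicates 1 and 2 and of 0.111, 0.195 and 0.161 without NT3 replicates 1, 2 and 3. On day 5 it was lost without HT5 replicate 1 (adjusted p = 0.0797) or 2 (0.151) and without NT5 replicate 2 (0.111) or 3 (0.117), as well as in a fit of the NT5 and HT5 samples alone (1.78, adjusted p = 0.0870). Without NT5 replicate 1 the log2FC was 2.697 (adjusted p = 0.00478). On day 7 it held without any single sample.

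IL1R1, the receptor that binds ligand and signals, did not pass on any day. It was measured at 146, 166 and 169 CPM in HT3 and 138, 143 and 127 CPM in NT3, at 143 and 123 CPM in HT5 and 110.3, 142 and 116 CPM in NT5, and at 231, 129 and 132 CPM in HT7 and 135, 151 and 142 CPM in NT7. HT3 samples were all above NT3 samples by a small margin, and on days 5 and 7 the groups overlapped. The log2FC was 0.24 (SE 0.18, adjusted p = 0.571) on day 3, 0.12 (SE 0.20, adjusted p = 0.695) on day 5 and 0.20 (SE 0.18, adjusted p = 0.379) on day 7. The interval of 95% confidence reached from -0.15 to 0.62 on day 3, from -0.32 to 0.55 on day 5 and from -0.19 to 0.59 on day 7. The day 7 value rested on HT7 replicate 1, without which it was -0.13 (adjusted p = 0.421).

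IL1RAP, the accessory protein shared by the receptors for IL1A, IL1B and IL33, had 30.6, 34.3 and 38.1 CPM in HT3 and 12.5, 14.1 and 13.2 CPM in NT3. It had 57.4 and 68.8 CPM in HT5 and 27.9, 11.6 and 16.8 CPM in NT5. It had 67.5, 64.3 and 89.7 CPM in HT7 and 28.0, 24.4 and 25.3 CPM in NT7. As with IL1R2, no hyperoxia sample fell within the range of the 9 normoxia samples. Replicates lay furthest apart in NT5, where replicate 1 was 2.40 times as high as replicate 2. IL1RAP rose by a log2FC of 1.37 (SE 0.24, adjusted p = 0.0141) on day 3, 1.75 (SE 0.25, adjusted p = 0.000319) on day 5 and 1.51 (SE 0.23, adjusted p = 0.000122) on day 7, which are 2.58-fold, 3.36-fold and 2.85-fold. With 1 sample left out at a time the log2FC on day 3 ran from 1.29 to 1.45. With the replicate block the day 3 value was 1.36 and did not pass (adjusted p = 0.0717). That call was also lost without HT3 replicate 2 (adjusted p = 0.0529) and without NT3 replicates 1 (0.0869), 2 (0.0619) or 3 (0.0743), whereas those of days 5 and 7 held without any single sample.

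IL1RL1, the IL33 receptor, was close to the limit of detection, with at most 57 counts in a sample. Its CPM ran from 0.467 to 0.665 in HT3, from 0.812 to 1.31 in HT5 and from 0.871 to 1.87 in HT7, while normoxia samples spanned 0.224 to 1.76 on day 3, 0.764 to 3.45 on day 5 and 0.337 to 1.71 on day 7. Groups overlapped on all 3 days, and the log2FC of -0.88 (SE 0.75, adjusted p = 0.620), -0.68 (SE 0.79, adjusted p = 0.539) and 0.20 (SE 0.70, adjusted p = 0.832) on days 3, 5 and 7 did not pass. No difference in the IL33 receptor was thus found on any of these days, and the interval on day 7 reached from -1.30 to 1.71. Whether the low counts of IL1RL1 account for this was not tested.

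NLRP3 had 11.8, 16.6 and 16.7 CPM in HT3 and 8.18, 7.91 and 10.5 CPM in NT3, so the groups of day 3 did not overlap. It had 12.2 and 12.4 CPM in HT5, within the 18.7, 5.66 and 9.56 CPM of NT5, and 24.9, 27.6 and 21.1 CPM in HT7, above the 16.6, 18.0 and 15.8 CPM of NT7. None of the log2FC passed, at 0.76 (SE 0.30, adjusted p = 0.243) on day 3, 0.12 (SE 0.34, adjusted p = 0.819) on day 5 and 0.54 (SE 0.30, adjusted p = 0.150) on day 7. Fitted to the NT7 and HT7 samples alone, the day 7 value was 0.55 and passed (adjusted p = 0.0287).

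IL1B, IL1R2 and IL1RN are abundant in neutrophils and monocytes, and markers of these cells moved in part with them. Neutrophil markers numbered 10 among the genes counted, of which 9 were tested, and their summed CPM ran from 321 to 832 in NT3, 1234 to 1899 in HT3, 163 to 762 in NT5, 743 to 1086 in HT5, 1093 to 1210 in NT7 and 1146 to 3594 in HT7, where replicate 1 was the highest. By the edgeR test 0 of 9 passed on day 3 (8 at an unadjusted p under 0.05, as were 15.3% of all genes). On day 5 2 rose, when 31.3% of all genes changed, and on day 7 2 rose and 1 fell, when 47.4% changed. On day 7 CXCR2 rose by 0.9995, MMP9 by 1.96 and MPO fell by 2.19 on the log2 scale. The granule gene MMP8 had at most 12 counts and MPO at most 70. Summed CPM of the macrophage and monocyte markers ran from 1264 to 1382 in NT3, 1220 to 1833 in HT3, 1199 to 2265 in NT5, 2137 to 2598 in HT5, 1596 to 1771 in NT7 and 2454 to 2996 in HT7. Of these 14 markers CD68 had the most counts in every sample, so it weighed most in the sums. The median log2FC of the 14 was 0.19 on day 7. On that day 3 rose (CD68 by 1.21, MSR1 by 1.71 and CD163 by 1.49) and MARCO fell by 2.19, when 47.4% of all genes changed. The part of either cell type in the values of the members was not tested.

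The difference between days was tested within each member and not between members, and IL33 passed. Its effect of hyperoxia was larger on day 7 than on day 3 by 1.44 (SE 0.30, adjusted p = 0.00597), and it was the 1 member of 10 whose effect differed, when 20.5% of all genes did. For IL1R2, IL1RAP and IL1B the effect differed by 0.20 (SE 0.77), 0.14 (SE 0.33) and 0.08 (SE 0.72), and for IL18 by -0.72 (SE 0.35, adjusted p = 0.151). Without HT7 replicate 2 the difference of IL18 was -1.10 and passed (adjusted p = 0.0102).

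Within hyperoxia 3 members rose and 1 fell from day 3 to day 7, while 22.3% of all genes rose and 22.0% fell. IL33 rose by 1.21 (SE 0.22, adjusted p = 0.000483), IL1RAP by 1.11 (SE 0.23, adjusted p = 0.00143) and IL1RN by 1.22 (SE 0.47, adjusted p = 0.0455), while IL18 fell by 0.88 (SE 0.25, adjusted p = 0.00957). The rise of IL1RN was lost without HT3 replicate 1 (adjusted p = 0.147) or 2 (0.158) and without HT7 replicate 1 (0.165) or 3 (0.0627). IL1R2 (1.35, adjusted p = 0.0521) and IL1B (1.25, adjusted p = 0.0555) did not pass. Leaving out HT3 replicate 3 took IL1B to 2.26 (adjusted p = 0.00126), and leaving out HT3 replicate 2 took IL1R2 to 1.85 (adjusted p = 0.0281). Both also passed without HT7 replicate 2 (1.51, adjusted p = 0.0304 for IL1B, and 1.64, adjusted p = 0.0256 for IL1R2), and in a fit of HT3 and HT7 alone IL1R2 (1.33, adjusted p = 0.0494) and NLRP3 (0.69, adjusted p = 0.0296) passed. Within normoxia 0 of 10 passed by edgeR, where 0.0% of all genes did, and 3 (6.27% of all genes) had an unadjusted p under 0.05: IL1RAP (0.96), NLRP3 (0.92) and IL1B (1.17), all higher in NT7. DESeq2 called 1, IL1RAP (0.95, adjusted p = 0.0332), as did a fit of NT3 and NT7 alone (0.96, adjusted p = 0.0281).

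The balance between genes within a sample does not depend on the library total, so log2 ratios were set against the mean of the 9 normoxia samples. The ratio of the decoy receptor IL1R2 to the signalling receptor IL1R1 was 1.75, 2.60 and 1.28 in HT3, 1.70 and 1.94 in HT5 and 3.49, 2.81 and 3.37 in HT7. In normoxia it was 0.12, -0.76 and -0.70 in NT3, 1.31, -1.39 and -0.34 in NT5 and 1.33, 0.52 and -0.09 in NT7. The HT7 ratios were the highest of all samples, all HT3 and HT5 ratios lay above those of their own day in normoxia, and HT3 replicate 3 was below NT5 replicate 1 and NT7 replicate 1. Group means differed by 2.32 on day 3, 1.96 on day 5 and 2.64 on day 7. Against the accessory protein, IL1R2 was higher by 1.20 on day 3 and 1.29 on day 7 and by 0.26 on day 5.

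For antagonist and agonist the order was the opposite. The ratio of IL1RN to IL1B was -0.20, -0.36 and -0.93 in HT3, -0.99 and -0.98 in HT5 and -0.74, -0.40 and -0.91 in HT7, and every hyperoxia ratio was under the normoxia mean. In normoxia the NT3 samples spanned -0.22 to 0.20, the NT5 samples -0.05 to 0.78 and the NT7 samples -0.64 to 0.08. Group means were lower in hyperoxia by 0.50 on day 3, by 1.27 on day 5 and by 0.40 on day 7, and on days 3 and 7 at least 1 hyperoxia sample lay within the range of normoxia. On day 5 both hyperoxia ratios were below all normoxia ratios of that day. The ratio of IL33 to IL18 ran from -0.78 to -0.10 in HT3, from 0.74 to 1.41 in HT5 and from 0.91 to 2.52 in HT7, and from -0.73 to 0.59 over all normoxia samples of days 3, 5 and 7. The mean difference went from -0.17 on day 3 through 0.68 on day 5 to 2.05 on day 7. These ratios were given as a description without a test.

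**Figure D3:**
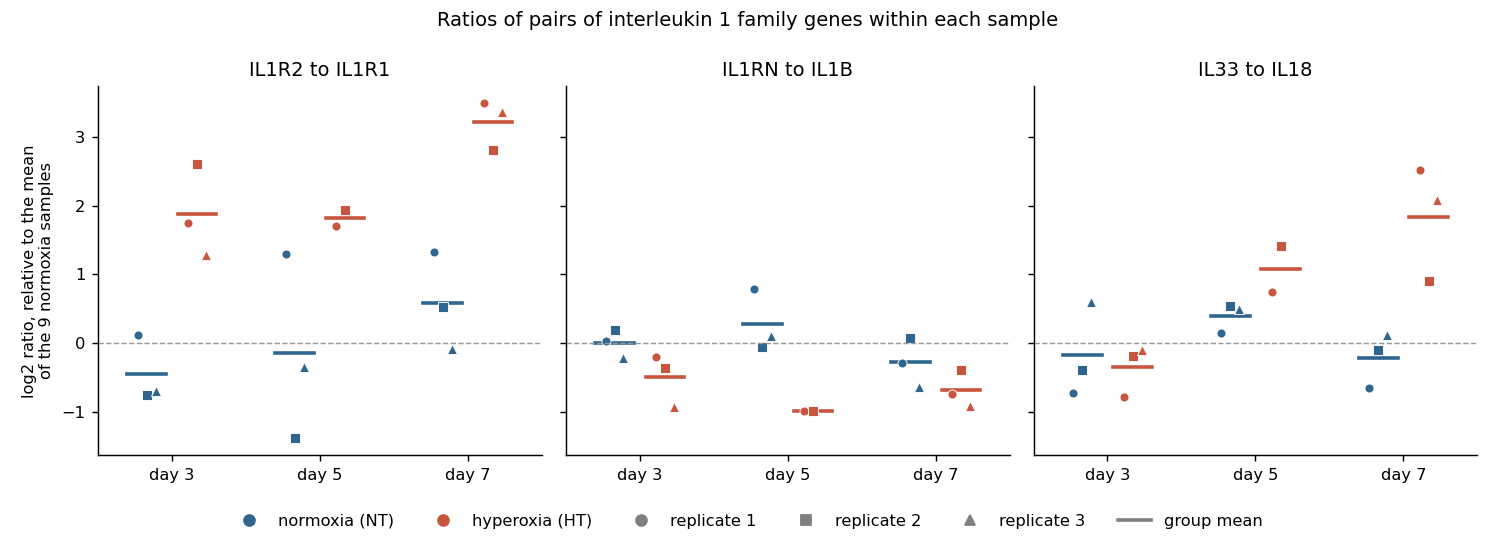
Log2 ratio of 2 genes within each sample relative to the mean of the 9 normoxia samples (vertical axis), by day, with normoxia in blue, hyperoxia in red and lines for group means. The IL1R2 to IL1R1 ratio is at least 1.28 in all hyperoxia samples, the IL1RN to IL1B ratio is below 0 in all of them, and the IL33 to IL18 ratio parts from normoxia on days 5 and 7.

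Members differed in how far replicates of a group lay apart. Deviations of log2 CPM from the group mean over the 17 samples were related most for IL1B with IL1RN (r = 0.88), IL1A with IL1RN (0.80), IL1A with IL1RL1 (0.76), IL1RAP with NLRP3 (0.76) and IL1A with IL1B (0.72). IL1A, IL1B and IL1RN are the members of the ligand cluster, and IL1RL1 had few counts. IL18 and IL33 deviated in opposite ways (r = -0.49). These values share library and depth, each from 17 points in 6 groups, and are descriptions. HT3 replicate 3 was high for all of IL1A, IL1B and IL1RN, and NT5 replicate 1 was high for IL1A, IL1RN, IL1R2, IL1RAP, IL1RL1 and NLRP3.

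**Figure D4:**
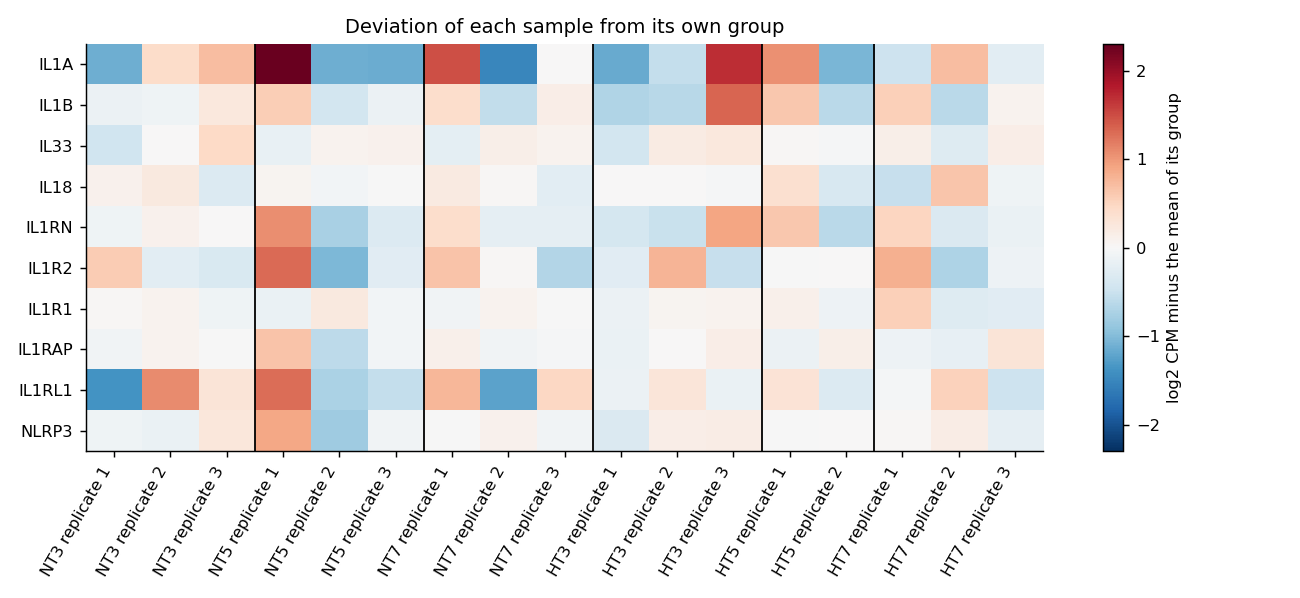
Deviation of log2 CPM from the mean of its own group (colour, red higher and blue lower) for each member (rows) in each of the 17 samples (columns, groups parted by black lines). The rows of IL1A, IL1B and IL1RN take the same colour in HT3 replicate 3 and in HT5 replicate 1, and the column of NT5 replicate 1 is red in most rows.

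Of 10990 other genes ranked in the same way (10991 for IL1RL1), IL1A was most like CFB (r = 0.97), PLA2G2A and CXCL5 (both 0.95), and IL1RN was most like PIK3R5 (0.97), SAMSN1 (0.96) and CCR1 (0.94). IL18 was most like AMOT (0.96), DOCK10 (0.96) and RILP (0.94), and IL1R1 like both entries of TBX3 (0.96 and 0.93) and IL1RL2 (0.93). IL1B was most like ACTN1, TOR3A (both 0.90) and TMEM184B (0.88), IL1R2 like DNAJB5 (0.89), TRAF3IP2 (0.88) and DERL1 (0.87), and IL1RAP like ABCC3 (0.92), CD101 (0.91) and IDO2 (0.88). NLRP3 was most like KIF21B (0.89), BST1 and IL2RG (both 0.88), IL1RL1 like HTR7 (0.86), DHDH and MED8 (both 0.84), and IL33 like KANK1, SETD7 (both 0.85) and ENSA (0.84).

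By the coordinates of the table (OryCun2.0), 6 of the 10 genes lie in a pair of clusters on chromosome 2. The receptors IL1RL1 (chr2:90078180-90095111), IL1R1 (chr2:90254703-90283645) and IL1R2 (chr2:90431206-90467153) share a stretch with IL1RL2 (chr2:90187883-90228747), all on the reverse strand. The ligands IL1A (chr2:97560400-97570279) and IL1B (chr2:97614349-97618581) and the antagonist IL1RN (chr2:97865546-97881097) lie with IL36A and IL1F10. IL1RAP lies at chr14:86210312-86470860, IL18 at chr1:104208433-104234438, IL33 at chr1:47919293-47931711 and NLRP3 on the unplaced scaffold GL018890 between 309716 and 347496. On day 7 IL1R2 and IL1RL2 rose on either side of IL1R1, which did not pass, and of the 13 other genes tested around the ligands 6 rose and 2 fell, next to 23.7% of all genes rising and 47.4% changed. Around the receptors 3 of the 5 other genes rose and 0 fell, IL1RL2 by 5.03, SLC9A2 by 2.44 and MAP4K4 by 0.75.

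Beyond the members, 13 further genes of the family were sought, 8 were in the table and 7 were tested, and on day 7 2 rose and 2 fell, next to 47.4% of all genes changed. IL1RL2, the receptor of the interleukin 36 cytokines, had 15.8, 4.66 and 6.04 CPM in HT7, 2.82 and 2.87 CPM in HT5, and between 0.118 and 0.318 CPM in all HT3 and normoxia samples. It rose by a log2FC of 3.68 (SE 0.52, adjusted p = 0.000277) on day 5 and 5.03 (SE 0.49, adjusted p = 3.91e-06) on day 7, and its effect differed between days 3 and 7 by 5.56 (SE 0.78, adjusted p = 0.000864). IL36A, one of its ligands, had 3.86, 4.41 and 2.46 CPM in HT7 and from 0.0 to 0.684 CPM in NT7. It rose by 3.71 (SE 1.17, adjusted p = 0.0168) on day 7 and did not pass on day 5 (2.73, adjusted p = 0.137). IL1RAPL2, a receptor known mainly from neurons, fell by 1.36 (adjusted p = 0.0125) on day 5 and by 2.52 (adjusted p = 5.77e-05) on day 7. IL1F10, also called interleukin 38, had between 1.46 and 2.73 CPM in NT3, between 0.498 and 0.710 CPM in HT3 and between 0.615 and 1.74 CPM in NT7. It was at 0.0577, 0.121 and 0.0 CPM in HT7, or at most 2 counts, so its fall (adjusted p = 0.000214) is given without a fold. IL18BP, the soluble inhibitor of IL18, lay between 60.7 and 77.3 CPM in all 17 samples, at a locus that it shares with another gene. The IL18 receptor genes IL18R1 (1.02, adjusted p = 0.143) and IL18RAP (0.58, adjusted p = 0.345) did not pass on day 7. Of these 7 genes 0 passed on day 3 by edgeR or by DESeq2. By edgeR 2 had an unadjusted p under 0.05 on day 3, as had 15.3% of all genes. On day 5 1 rose and 2 fell, next to 31.3% of all genes changed.

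**Figure D5:**
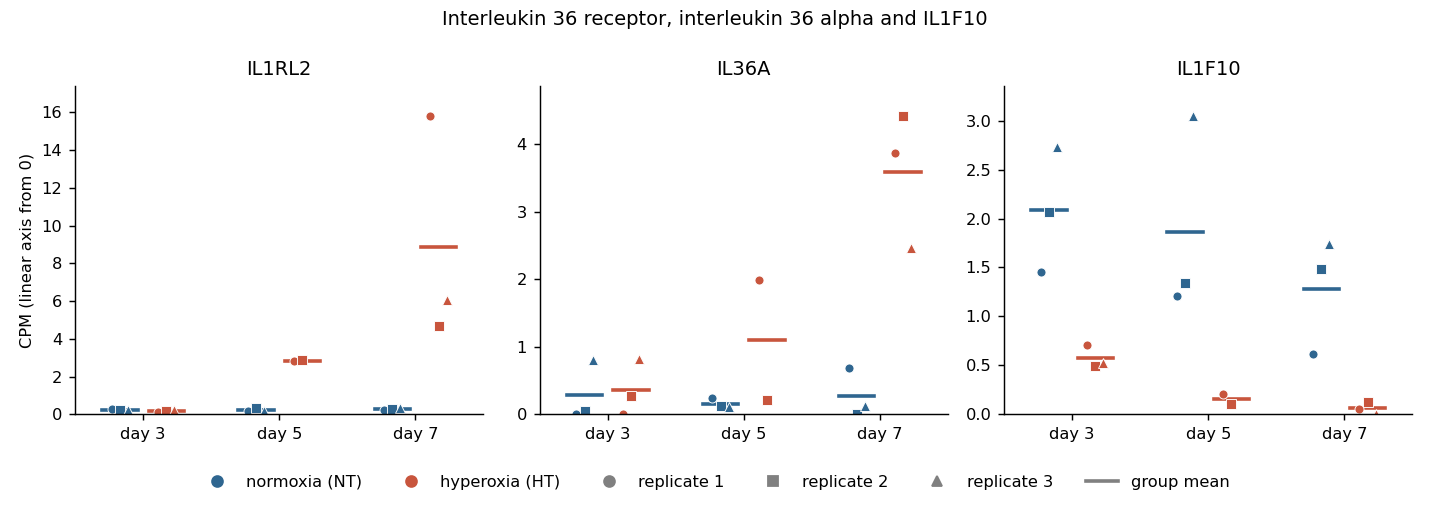
CPM (vertical axis, linear from 0) of IL1RL2, IL36A and IL1F10 by day, with normoxia in blue, hyperoxia in red and lines for group means. IL1RL2 is between 2.82 and 15.8 CPM in HT5 and HT7 and under 0.32 CPM in all other samples, and IL1F10 falls to at most 0.121 CPM in HT7.

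The genes that assemble inflammasomes and process the ligands were 16, of which 10 were in the table, all tested. On day 7 4 rose and 2 fell, next to 47.4% of all genes changed and 23.7% rising, and the median log2FC was 0.39 against -0.01 over all genes. NEK7, which binds NLRP3, rose by 0.59 (SE 0.14, adjusted p = 0.00233), NINJ1, which ruptures the membrane of dying cells, by 1.06 (SE 0.35, adjusted p = 0.0214) and CASP5 by 0.93 (SE 0.33, adjusted p = 0.0320). TXNIP fell by 0.87 (adjusted p = 0.00858) and P2RX7, the ATP-gated channel upstream of NLRP3, by 0.94 (adjusted p = 0.0168). The log2FC of CASP1, which cuts IL1B and IL18, was 0.44 (adjusted p = 0.230), that of its adaptor PYCARD -0.40 (adjusted p = 0.454) and that of the pore protein GSDMD -0.15 (adjusted p = 0.733). The count of 6 changed genes went to 2 without HT7 replicate 1, to 1 without NT7 replicate 2 and to 3 without NT7 replicate 3. On day 5 2 rose and 2 fell, next to 31.3% of all genes changed, or 2 changed with only the groups compared in the fit. On day 3 0 passed by edgeR, with 2 at an unadjusted p under 0.05, as were 15.3% of all genes. MEFV, which encodes pyrin, was also among those that rose on day 7 (1.56, SE 0.60, adjusted p = 0.0425). On day 3 MEFV passed by DESeq2 (2.27, adjusted p = 0.0120) and in edgeR with the replicate block (2.32, adjusted p = 0.0401).

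All 16 genes of signal transduction below the receptor were tested, and on day 7 5 rose and 3 fell, next to 47.4% of all genes changed, with a median log2FC of 0.07. The kinase IRAK1 rose by 1.47 (SE 0.15, adjusted p = 5.71e-06), the adaptor MYD88 by 0.67 (SE 0.14, adjusted p = 0.00138) and the IkB kinase CHUK by 0.47 (SE 0.11, adjusted p = 0.00281). TAB1, a partner of the kinase MAP3K7, fell by 0.88 (adjusted p = 2.31e-05), and the ubiquitin ligases PELI2 and PELI1 by 0.71 (adjusted p = 0.00213) and 0.61 (adjusted p = 0.00789). IRAK1 stood at 152, 107 and 128 CPM in HT7 and at 47.4, 41.3 and 51.3 CPM in NT7, and its effect was larger on day 7 than on day 3 by 1.23 (SE 0.21, adjusted p = 0.00208). On day 5 5 rose and 2 fell, next to 31.3% of all genes changed, or 3 changed with only the groups compared in the fit. On day 3 0 passed by edgeR, with 3 at an unadjusted p under 0.05, as were 15.3% of all genes. DESeq2 called IRAK3 (0.89, adjusted p = 0.0362) and TAB1 (-0.36, adjusted p = 0.0483) on day 3.

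Genes that interleukin 1 is known to induce, which many other stimuli induce too, numbered 23, of which 19 were tested. On day 5 9 rose and 0 fell, next to 15.9% of all genes rising, and on day 7 12 rose and 0 fell, next to 23.7% rising. CSF2 was lower in hyperoxia on day 7 and did not pass (-1.68, adjusted p = 0.0679). The median log2FC was 0.89, 1.62 and 1.82 on days 3, 5 and 7. LIF, a cytokine of the interleukin 6 family, reached 457, 43.5 and 176 CPM in HT7 against 3.01, 1.89 and 1.81 CPM in NT7 and rose by 6.66 (SE 0.81, adjusted p = 1.94e-05). PTGS2 (cyclooxygenase 2) reached 926, 101 and 702 CPM against 20.9, 12.3 and 14.6 CPM and rose by 5.18 (SE 0.73, adjusted p = 6.12e-05). CSF3, the growth factor of neutrophils, reached 53.1, 1.81 and 30.5 CPM against 0.615, 0.0675 and 0.374 CPM and rose by 6.31 (SE 1.01, adjusted p = 0.000161). In all 3 genes HT7 replicate 1 was the highest and replicate 2 the lowest of the HT7 samples, an order also seen in IL1B, IL1RN, IL1R1 and IL1R2 and not in IL1A. Summed neutrophil markers had this order too (3594, 1146 and 1632 CPM in HT7 replicates 1, 2 and 3). So did summed macrophage and monocyte markers (2996, 2454 and 2558 CPM). CD68, with the most counts of its list, shared it (34655, 19490 and 31505 counts). MSR1 (1850, 2697 and 2245 counts) and CD163 (561, 746 and 313 counts) were highest in replicate 2. Of the neutrophil markers CXCR2 (980, 315 and 959 counts) shared the order, and MMP9 (1178, 1343 and 1543 counts) was lowest in replicate 1. The part of either cell type in these values was not tested. Without HT5 replicate 2 4 of the 19 changed on day 5. On day 3 0 passed by edgeR, with 6 at an unadjusted p under 0.05, as were 15.3% of all genes. DESeq2 called VCAM1 (0.95, adjusted p = 0.00299) and NFKBIA (0.78, adjusted p = 0.0131), and edgeR fitted to NT3 and HT3 alone called VCAM1 (0.95, adjusted p = 0.00678).

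Marker counts of the remaining cell types on day 7 stand next to 47.4% of all genes changed. On that day 3 of 5 alveolar type 1 markers fell, RTKN2 by 3.00, CAV1 by 2.40 and AGER by 2.04. So did 7 of 9 lymphocyte markers, among them GATA3 by 2.60, CD5 by 2.47 and CD3D by 2.76. In HT7 CD5 had 10, 9 and 5 counts and CD3D 7, 1 and 1, so their folds are imprecise. Of 5 mast cell markers KIT alone fell, by 2.65. Of 6 fibroblast markers LUM rose by 1.25, and TCF21 fell by 1.56, PDGFRB by 0.65 and COL1A2 by 0.45. Of 6 skeletal muscle markers 0 passed on day 7, while 4 rose on day 5 (31.3% of all genes changed) with HT5 replicate 1 in the group. Among endothelial markers TIE1 fell by 0.87 on day 3 (adjusted p = 0.00316) and by 2.26 on day 7 (adjusted p = 1.43e-07), when CDH5 fell by 1.96 and TEK by 2.79. Their part in the values of the members was not tested.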

How the data were processed

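RNA-seq of 17 right lung homogenates was used. The authors deposited raw counts per locus, without normalization, from stranded poly(A) libraries read as 100 x 2 bases. The submitters' processing notes name FastQC, STAR 2.7.10a and OryCun2.0, and the counting program is not given in the sources used here. A locus with several annotated genes appears as several entries with identical counts.

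The counts were tested in edgeR 4.0.16 (R 4.3.3), with filterByExpr (13142 genes tested, 685 not), TMM factors, a quasi-likelihood model with 6 group means over all 17 samples, and Benjamini-Hochberg adjustment over all genes tested. Log2FC used a prior count of 0.125, SEs were the log2FC over the square root of F, and intervals took the t quantile of that test. CPM used TMM factors and the totals of tested entries. The steps were tested on simulated data. DESeq2 1.42.0, other size factors, another prior count, no filter, 1 entry per locus, only the groups compared, day as a number, replicate blocks and leaving out each sample were alternatives. Deviations of samples with equal replicate numbers correlated by 0.166, 0.129 and 0.201 on day 3, so the number was taken as a pairing there. On day 5 those of replicates 1 and 2 correlated by 0.265 and 0.140, and HT5 replicate 2 correlated better with NT5 replicate 3 (0.189). Replicate numbers were not taken as a pairing on day 5. The labels do not say what it marks.

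The members and lists were chosen with earlier results of these data known. Named are all members, up to 3 genes of each list that rose and 3 that fell with the lowest p on day 7 or day 3, and the 3 genes most like each member. CASP1, PYCARD, GSDMD, IL18BP, IL18R1 and IL18RAP, named for their roles, MEFV, IRAK3, VCAM1 and NFKBIA, called by other fits, and CSF2, SLC9A2 and MAP4K4 fall outside this rule and were chosen after their values were seen. Totals of counts limit precision for IL1RL1, IL36A and IL1F10, and for the lymphocyte markers CD5 and CD3D.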

Additional observations from a re-analysis of the deposited data

Results flagged for a closer look

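The effect of hyperoxia on IL33 differed between days by the test of the difference itself. Its log2FC was -0.06 on day 3 and 1.37 on day 7, a difference of 1.44 (SE 0.30, adjusted p = 0.00597 by edgeR). All 3 HT7 samples were above all 3 NT7 samples, while HT3 and NT3 overlapped. Leaving out each of the 12 samples in turn gave differences from 1.18 to 1.64, with adjusted p between 0.00215 and 0.0174.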

How the results depend on the processing

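Of 790 values of members under the alternatives, 709 kept their direction and their side of the threshold, 26 lost the call, 22 gained one and 33 changed sign, and the cause was not tested. The replicate block took the members changed from 2 to 0 on day 3. On day 7 it took them from 4 to 7, adding IL1A, IL1RN and IL18. The share of all genes changed under the block is not given here, so these counts stand without it. The block also turned the day 7 minus day 3 difference of IL1A from -0.41 to 0.17. On day 7 the correlations of equal numbers were 0.172, 0.109 and 0.0676, which was not taken as a pairing, although each HT7 sample correlated best with its own number. DESeq2 gave 1 DEG in place of 0 on day 3. Between NT3 and NT7 DESeq2 and the fit of only the groups compared each gave 1 member in place of 0. The fit of only the groups compared also gave 0 DEGs in place of 1 on day 5. Leaving out 1 sample at a time, which assumes that a lone HT5 sample varies like the other groups, gave 0 to 2 members changed on day 3, 1 to 6 on day 5, 3 to 6 on day 7 and 3 to 6 between HT3 and HT7, 0 to 4 DEGs on day 5 and 1 on day 7, and 1 to 2 members whose effect differed between days. Without NT5 replicate 1 the 4 DEGs of day 5 were IL1A, IL1B, IL1R2 and IL1RAP. All other changes of sign came from leaving out 1 sample and were in differences that did not pass. These ranges were -0.035 to 0.23 for IL18 and -0.26 to 0.19 for IL33 on day 3, -0.20 to 0.51 for IL18, -1.06 to 0.35 for IL1RL1 and -0.19 to 0.68 for NLRP3 on day 5, and -0.13 to 0.36 for IL1R1 and -0.23 to 0.61 for IL1RL1 on day 7. For day 7 minus day 3 they were -0.87 to 0.97 for IL1A, -0.25 to 1.09 for IL1B, -0.37 to 0.12 for IL1R1, -0.32 to 0.70 for IL1R2 and -0.014 to 0.24 for IL1RAP. Between HT3 and HT7 IL1R1 ran from -0.30 to 0.18, and between NT3 and NT7 IL1A ran from -0.11 to 1.40, IL33 from -0.42 to 0.030 and IL1RL1 from -0.26 to 0.93. Samples of 2 or 3 per group and the low counts of IL1RL1 limit what can be detected.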
